A study of Mus musculus with 4 samples.

Results

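The genes described here are 10 products of Sertoli cells, the somatic nurse cells that line the seminiferous tubule: the cystatins *Cst9* and *Cst12*, the beta-defensins *Defb19* and *Defb36*, the secreted proteins *Clu*, *Spp1* and *Trf*, and the intracellular proteins *Aard*, *Tnni3* and *Tesc*. They were chosen with measured levels of these same data in view, as abundant Sertoli products, a description that *Trf* did not meet (below), and were found by symbol as 10 of the 30828 gene rows of both matrices. Their levels by cell class and between genotypes are therefore a description, with no test. The libraries came from postnatal day 8 (P8) testes of control mice, labelled wild-type, and of *Cnot3*-cKO mice, labelled *Cnot3* KO. For neonatal deletion the study describes the controls as *Cnot3*flox/flox littermates without Cre, and the *Cnot3*-cKO as *Cnot3*flox/flox mice with *Ddx4-creER*. In the latter, 4-hydroxytamoxifen (4-OHT), given to all mice, activates a Cre driven by a germ-cell promoter, so Sertoli cells were not the targeted cells. The labels give injections that all began at P1 and ended at P1 or P2 in the control and at P3 or P4 in the *Cnot3*-cKO samples, whereas the study's methods give 1 window for all neonatal mice. Whether the end of injection differed between the groups is therefore not known. Dissociated cells were sorted for the surface markers CD9 and THY1 to enrich germ cells, and 3′ single-cell libraries were made. Of 4 samples, both samples of a genotype were merged in 1 matrix, so each genotype was 1 library, no replicate spread could be computed, and no difference between genotypes was tested.

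Sertoli cells support germ cells by secreting proteins into the tubule, by carrying iron and other nutrients across the barrier they form, and by clearing debris. Many cystatins are secreted inhibitors of cysteine proteases, among them several cathepsins. *Cst9* (testatin) and *Cst12* belong to a reproductive-tract branch of the cystatin family. Beta-defensins are small cationic peptides of innate immunity, many of which are made in the male tract. Clusterin (*Clu*) is an extracellular chaperone, osteopontin (*Spp1*) an integrin-binding phosphoprotein, and transferrin (*Trf*) the iron carrier of serum and tubule fluid. *Tnni3* encodes the inhibitory troponin of heart muscle, *Tesc* encodes tescalcin, a calcium-binding protein, and *Aard* encodes an alanine- and arginine-rich protein.

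Several of these genes lie close together in the genome (GENCODE M21, GRCm38). *Cst12* (chr2:148789361-148793546, plus strand) and *Cst9* (chr2:148835147-148838738, plus strand) were 41600 bases apart, with *Cst8* and *Cst13* between them. *Defb19* (chr2:152576086-152580312, minus strand) and *Defb36* (chr2:152604327-152612729, plus strand) were 24014 bases apart, with *Defb45* between them. *Spp1* (chr5:104435118-104441050) and *Tesc* (chr5:118027743-118061878) lay on chromosome 5, *Tnni3* (chr7:4518305-4524229) on 7, *Trf* (chr9:103204001-103230444) on 9, *Clu* (chr14:65968483-65981547) on 14 and *Aard* (chr15:52040107-52045722) on 15. All are protein coding. *Defb36*, *Spp1*, *Trf* and *Tnni3* each overlap another annotated gene on the same strand (*Gm14163*, *Gm42793*, *Gm20425* and *Dnaaf3*), so reads in the shared stretch could not be assigned by strand.

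The 250 bases before the start site are shown for the cystatin pair, for the 1 gene that passed the fold between genotypes below (*Defb36*), from RefSeq (GRCm38.p6), which gave windows for 6 of the 10 genes. Words of known Sertoli factors were searched on both strands, and matches are in capitals: AGATAA and its part AGATA (GATA factors), AACAAT and its part ACAAT (SOX factors), and CAAGGTC, which overlaps AAGGTCA (nuclear receptor NR5A1). The word CAAGGTC was chosen after the sequences were read.
Cst9, chr2:148834897-148835146, plus strand: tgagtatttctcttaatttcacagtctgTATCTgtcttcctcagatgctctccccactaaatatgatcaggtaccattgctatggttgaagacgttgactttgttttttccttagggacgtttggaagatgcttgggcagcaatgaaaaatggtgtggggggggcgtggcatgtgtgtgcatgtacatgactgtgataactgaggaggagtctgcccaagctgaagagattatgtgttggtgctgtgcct
Cst12, chr2:148789115-148789364, plus strand: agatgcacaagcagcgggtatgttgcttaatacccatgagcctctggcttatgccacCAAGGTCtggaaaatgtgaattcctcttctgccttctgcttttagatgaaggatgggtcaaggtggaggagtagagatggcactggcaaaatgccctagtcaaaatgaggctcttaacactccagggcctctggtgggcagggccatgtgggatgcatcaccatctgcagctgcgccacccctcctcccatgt
Defb36, chr2:152604077-152604326, plus strand: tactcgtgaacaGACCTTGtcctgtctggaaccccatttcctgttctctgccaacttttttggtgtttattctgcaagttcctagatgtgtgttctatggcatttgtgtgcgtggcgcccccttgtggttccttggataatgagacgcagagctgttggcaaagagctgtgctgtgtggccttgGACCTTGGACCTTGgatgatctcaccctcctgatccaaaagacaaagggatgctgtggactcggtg
CAAGGTC or its reverse complement was in 3.32% of 32851 windows of all genes. It was present 3 times in *Defb36* (starting at -238, -66 and -59 from the start site), once in *Cst12* (at -193) and once in *Tnni3* (at -116), whose RefSeq start lies inside the gene as placed above and whose window is not shown. AGATA, found in 26.6% of all windows, was present once in *Cst9*. The longer words AGATAA (9.99% of all windows), AACAAT (9.42%) and AAGGTCA (4.08%) were in none of the 6 genes' windows, and neither was ACAAT (27.7%). AGATA and the TATA word TATAAA (12.4% of all windows) were also in windows of *Spp1*. These matches describe letters, not occupied sites.

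The study's stated filters left 5615 control and 6034 *Cnot3*-cKO barcodes with medians of 14183 and 13215 UMIs (unique molecular identifiers, each standing for 1 captured transcript); 7 barcodes were shared between the libraries. Cells were clustered without the 10 genes. Clusters 1, 7 and 8 were Sertoli-like, with 1400 control and 1725 *Cnot3*-cKO cells (24.9% and 28.6%), and expressed all 10 markers fixed for that class, including *Wt1* (366 and 318 CPM, that is, UMIs scaled to a class total of 1e+06) and *Amh* (537 and 462 CPM). None of these markers was at 0. Cell-cycle genes led cluster 1 (*Ube2c*, *Top2a*, *Cdk1*), *Hsd17b1* and *Rhox8* were among the leaders of cluster 7, and *Cidea* and *Nr0b1* were among those of cluster 8. In Sertoli-like cells the 10 germ-cell markers summed to 30.5 and 23.9 CPM and the 7 macrophage markers to 4.75 and 6.23. The 6 peritubular myoid markers summed to 19.7 and 51.3, and 6 red-cell markers to 0.713 and 373; their part in the values below was not tested. A further 209 and 239 cells formed a cluster with both Sertoli and stromal markers and a median of 24698 UMIs, of which Scrublet marked 99.5% and 99.2% as doublets. That cluster was left unnamed and kept apart. *Cnot3* itself, the targeted gene, was at 64.5 and 67.2 CPM in Sertoli-like cells, and at 69.4 and 38.9 in germ-like cells, the targeted class.

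The 10 genes made up over 1% of the transcripts of Sertoli-like cells. Together the 10 took 1.36% of all UMIs in control and 1.37% in *Cnot3*-cKO Sertoli-like cells. They took 0.0174% and 0.0232% in interstitial-like cells (clusters with stromal or peritubular myoid markers) and 0.0183% and 0.0324% in germ-like cells. The highest level was in Sertoli-like cells in both libraries for 9 of the 10. This was so for 15.5% of all genes with at least 100 UMIs over the named classes, but the genes were chosen on that pattern and nothing is read from the comparison. The exception was *Trf*. Cluster 13, of 10 control and 11 *Cnot3*-cKO cells with *Pax8* and *Podxl* among its leaders, was unnamed and belongs to no class above. It held *Aard* at 445 and 444 CPM, *Tnni3* at 397 and 508 and *Tesc* at 295 and 105. *Cst12* (66.2 and 35.0) and *Cst9* (24.1 and 23.4) were lower in it.

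**Figure D1:**
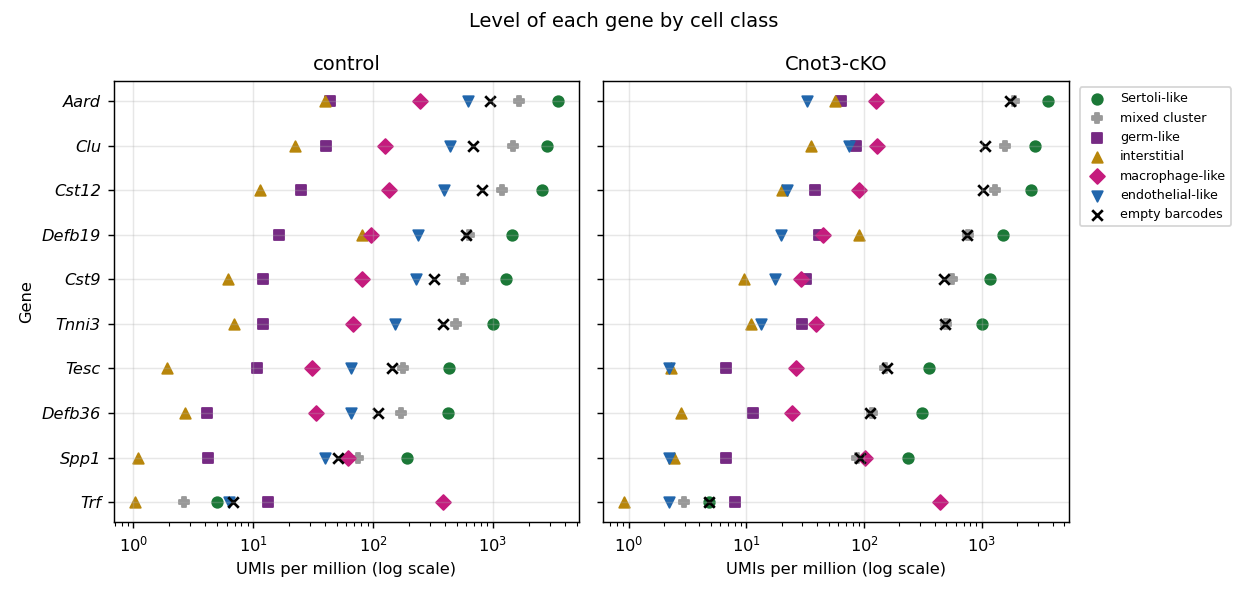
Level of each gene in CPM (log axis) in each named class, in the cluster with both Sertoli and stromal markers and in empty barcodes. Control is on the left and *Cnot3*-cKO on the right. Each point is the summed level of 1 class in 1 library, and classes at 0 have no point. Cluster 13 is not shown. For 9 genes the Sertoli-like point is rightmost, from 194 (*Spp1*) to 3499 (*Aard*) in control, while *Trf* is rightmost in macrophage-like cells (380 and 439).

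*Aard* was the most abundant of the 10, at 3499 CPM in control (95% Poisson interval 3474 to 3524) and 3627 in *Cnot3*-cKO (3604 to 3651), which ranked it 21st and 19th of all genes in Sertoli-like cells. These intervals, like all that follow, cover counting error only. *Clu* followed at 2801 and 2840 (rank 41 and 35) and *Cst12* at 2569 and 2642 (rank 54 and 43). *Defb19* was at 1447 and 1519, *Cst9* at 1275 and 1169, and *Tnni3* at 996 and 1011. The counting intervals of neighbours in this order did not overlap in either library. *Tesc* and *Defb36* were next: in control they stood at 432 (423 to 441) and 423 (414 to 432), with overlapping intervals, and in *Cnot3*-cKO at 359 (352 to 367) and 309 (302 to 316), which did not overlap. *Spp1* was at 194 and 235. UMIs at the 3′ end count transcripts and do not depend on transcript length, though capture can differ between genes.

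*Trf* went against its place among Sertoli products at this age. It was at 5.04 (4.13 to 6.09) and 4.77 (3.95 to 5.72) CPM in Sertoli-like cells, rank 9891 and 10032, close to its level in empty barcodes (6.81 and 4.82). In macrophage-like cells it was at 380 (341 to 423) and 439 (400 to 480). At 7500 UMIs a cell, 32 of 49 control macrophage-like cells had a *Trf* UMI (65.3%, exact binomial interval 50.4 to 78.3) and 45 of 61 *Cnot3*-cKO cells did (73.8%, 60.9 to 84.2), against 3.86% and 2.55% of Sertoli-like cells. The signal was spread over the cells: the highest cell held 8.21% and 5.56% of the class's *Trf* UMIs. In germ-like cells *Trf* was at 13.3 (10.7 to 16.2) in control, above the Sertoli-like interval, and at 8.06 (4.16 to 14.1, from 12 UMIs) in *Cnot3*-cKO, which overlaps it.

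In interstitial-like and germ-like cells most of the other 9 genes were at a small share of their level in empty barcodes, that is, barcodes with at most 100 UMIs, which hold RNA set free from other cells. Leaving out *Trf* and *Defb19*, this share in interstitial-like cells ran from 0.0131 to 0.0420 in control and from 0.0145 to 0.0335 in *Cnot3*-cKO. For the same 8 genes in germ-like cells it ran from 0.0312 to 0.0827 and from 0.0366 to 0.101. Levels at these small shares cannot be told from background here. *Aard* was the highest of the 8 in interstitial-like control cells, and *Clu* in *Cnot3*-cKO (0.0335, against 0.0327 for *Aard*). With estimated free RNA subtracted, 11.3 of 39.6 CPM of *Aard* remained in control and 13.3 of 56.9 in *Cnot3*-cKO. For *Clu* 1.41 of 22.3 CPM remained in control and 9.01 of 35.6 in *Cnot3*-cKO.

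*Defb19* was the exception in interstitial-like cells, at 80.7 and 91.0 CPM, 0.135 and 0.122 of its empty-barcode level. It was uneven among their clusters. In cluster 5 (led by *Vcam1* and *Kcnk3*) it was at 129 and 144, and in cluster 6 (led by *Foxl2* and *Cyp26b1*) at 169 in both libraries. Clusters 2, 4, 9 and 12 lay between 28.6 and 44.4 in control and between 30.3 and 53.6 in *Cnot3*-cKO. Cluster 14, with 8 control and 91 *Cnot3*-cKO cells, was at 0 and 25.7. At 7500 UMIs, 30.4% and 33.6% of interstitial-like cells had a *Defb19* UMI, against 1.88% and 1.93% for *Defb36* and 11.2% and 18.3% of germ-like cells for *Defb19*. *Defb36*, its neighbour on chromosome 2, was at 2.91 and 4.69 in cluster 5 and 2.51 and 3.02 in cluster 6.

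*Spp1* reached its empty-barcode level in macrophage-like cells, at 61.4 (46.2 to 79.9) and 101.3 (83.1 to 122) CPM, 1.20 and 1.10 times its empty-barcode level. Those UMIs came from few cells: the highest cell held 41.8% and 45.4% of them and the top 3 cells 65.5% and 85.2%, and 14.3% and 9.84% of cells had a UMI at 7500. The control endothelial-like class (33 cells) showed a similar concentration for all the genes together: 72.9% of its 1068 UMIs were in 3 cells, and its median cell held them at 122 CPM, against 161 for the 37 *Cnot3*-cKO cells. The apparent excess of these genes in control endothelial-like cells (*Aard* 623 against 33.1) was therefore largely that of 3 cells.

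Empty barcodes carried these genes at high levels. The 10 genes made up 0.406% of UMIs in empty control barcodes and 0.590% in empty *Cnot3*-cKO barcodes. There *Aard* was at 944 and 1744 CPM, *Clu* at 689 and 1064, *Cst9* at 323 and 481 and *Spp1* at 51.2 and 91.9, whereas *Defb36* was at 111 and 113. All barcodes over 5000 UMIs, summed, held 0.386% and 0.590%. The Sertoli-like level was 2.41 (*Defb19*) to 4.07 (*Clu*) times the empty-barcode level in control and 2.03 to 2.73 times in *Cnot3*-cKO for the 9 genes. The levels varied with barcode size: in control *Defb19* was at 665 in barcodes of 1 to 10 UMIs, 469 in those of 11 to 50 and 433 in those of 51 to 100, and *Aard* was at 757, 1323 and 1414. In *Cnot3*-cKO *Defb19* was at 841, 540 and 686 and *Aard* at 1213, 1859 and 2257 over the same ranges.

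Between genotypes, *Defb36*, *Tesc* and *Spp1* had the largest log2 ratios, in either direction, of the 9 abundant genes. Those of the other 6 lay between -0.13 and 0.07. In Sertoli-like cells the level of *Defb36* was 423 CPM for control against 309 for *Cnot3*-cKO, a log2 ratio of -0.45 (counting interval -0.50 to -0.41). *Tesc* was at 432 and 359, a log2 ratio of -0.27 (-0.31 to -0.22), and *Spp1* at 194 and 235, a log2 ratio of 0.28 (0.22 to 0.34). *Cst9* followed at -0.13 (-0.15 to -0.10). *Cst12*, *Clu*, *Defb19*, *Aard* and *Tnni3* had log2 ratios between 0.02 and 0.07, and *Clu* and *Tnni3* turned to -0.02 when ratios were centred on the all-gene median of 0.04. *Trf*, at -0.08, had an interval from -0.47 to 0.31. By the fold used here, a log2 ratio of 0.3 either way, 1 of the 10 was lower (*Defb36*) and 0 were higher, and *Tesc* and *Spp1* lay just inside it. Among 11070 genes with at least 100 UMIs, 3.68% were lower and 6.74% higher by that fold, and all 10 passed that filter. The median log2 ratio of the 10 was 0.02, against 0.04 over all genes. Since each genotype was 1 library, these ratios compare the libraries and carry no estimate of variation between animals.

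**Figure D2:**
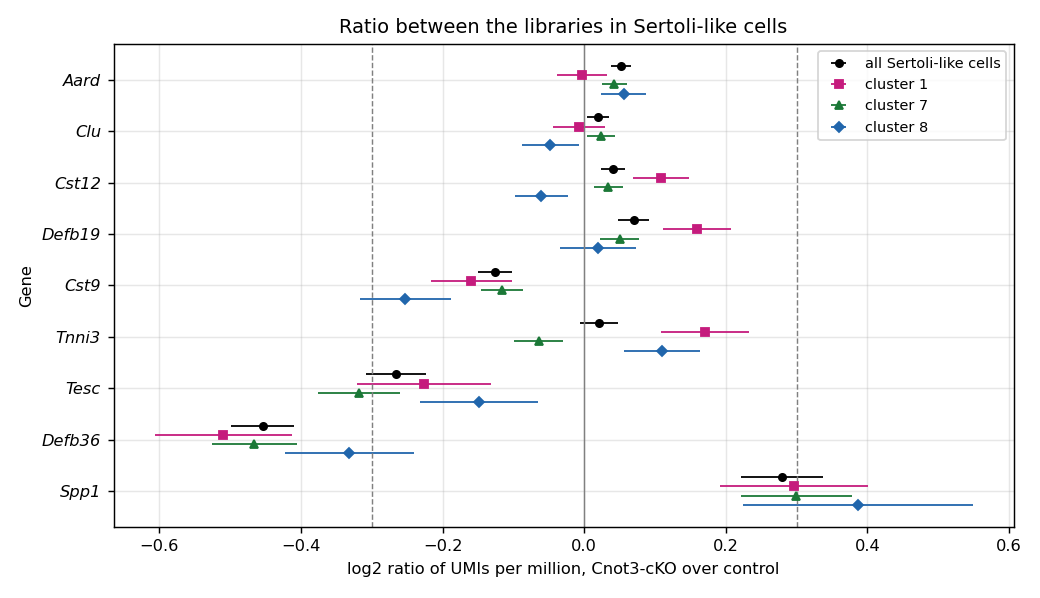
Log2 ratio of CPM, *Cnot3*-cKO over control, for 9 genes in all Sertoli-like cells (black) and in each Sertoli-like cluster; bars are exact 95% counting intervals and dashed lines mark the fold of 0.3. *Defb36* and *Tesc* lie left of 0 and *Spp1* right of 0 in all 3 clusters.

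*Defb36* lay low among all genes: 1.60% of the other genes past the filter had a lower log2 ratio, and 0.276% of those with at least 1000 UMIs. For *Tesc* these shares were 4.50% and 1.76%, and for *Spp1* 91.9% and 97.1%. The difference in *Defb36* was present in each cluster, at 448 and 315 CPM in cluster 1 (log2 -0.51), 383 and 277 in cluster 7 (-0.47) and 518 and 411 in cluster 8 (-0.33). *Spp1* was at 291 and 358 in cluster 1 (0.30), 176 and 217 in cluster 7 (0.30) and 131 and 171 in cluster 8 (0.39). *Tesc* was at 420 and 359 (-0.23), 389 and 312 (-0.32) and 577 and 521 (-0.15). *Tnni3* did not keep a direction: 832 and 936 in cluster 1 (0.17), 966 and 923 in cluster 7 (-0.06), and 1285 and 1387 in cluster 8 (0.11).

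The mitochondrial filter removed unequal parts of the Sertoli-like cells: with the limit raised to 20% and no bounds on UMIs and genes, the class held 2884 control and 4362 *Cnot3*-cKO cells, of which 1471 and 2618 had a mitochondrial share over 10%. In those cells *Defb36* was at 325 and 255 (log2 -0.35), *Tesc* at 355 and 306 (-0.22) and *Spp1* at 138 and 184 (0.41). The directions were thus the same in the cells that the filter removed, and the levels lower. Depth also moved with the sizes: in cells under 13000 UMIs the log2 ratios of *Defb36*, *Tesc* and *Spp1* were -0.35, -0.12 and 0.42, and in deeper cells -0.52, -0.31 and 0.23.

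The 3 Sertoli-like clusters differed in which of these products they held most of. *Spp1* was highest in the cycling cluster 1, at 1.51 and 1.52 times its level over all Sertoli-like cells, and lowest in cluster 8, at 0.678 and 0.729 times. *Tesc* (1.34 and 1.45 times), *Tnni3* (1.29 and 1.37 times) and *Defb36* (1.22 and 1.33 times) were highest in cluster 8. *Cst9* was highest in cluster 7 (1.12 and 1.13 times) and lowest in cluster 8 (0.791 and 0.724 times). *Aard* was lowest in the cycling cluster (0.801 and 0.771 times). The clusters were drawn from the same cells, though not from these genes, so these contrasts have no test.

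**Figure D3:**
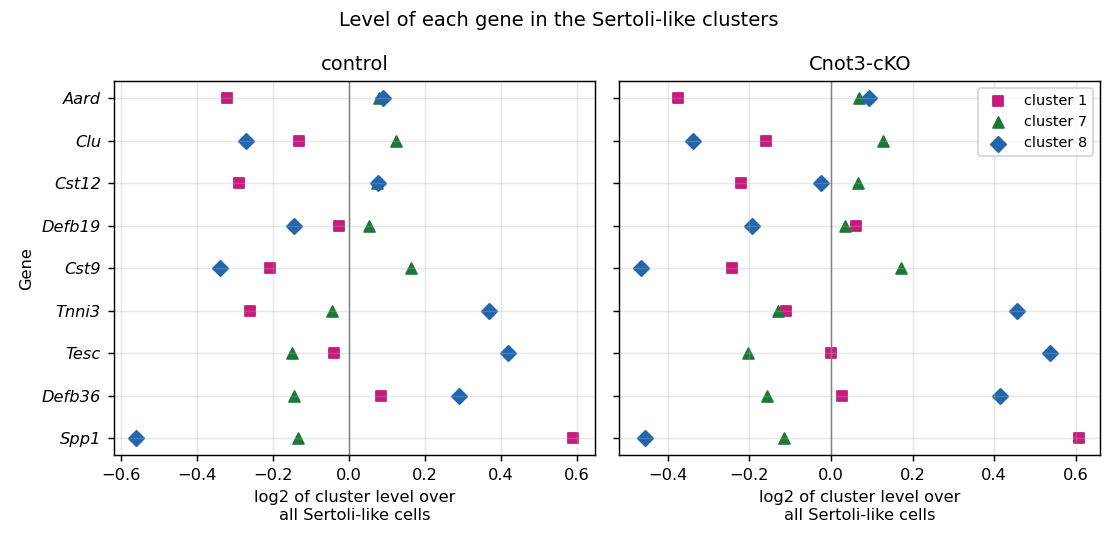
Log2 of each gene's level in a Sertoli-like cluster over its level in all Sertoli-like cells, control on the left and *Cnot3*-cKO on the right; 1 point per cluster. *Spp1* is highest in cluster 1 (1.51 and 1.52 times), while *Tesc*, *Tnni3* and *Defb36* are highest in cluster 8.

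Over single Sertoli-like cells thinned to 7500 UMIs, the most abundant genes were in every cell. *Cst12*, *Clu* and *Aard* had a UMI in 100% of 1400 control and 1725 *Cnot3*-cKO cells, *Defb19* in 99.8% of both, *Cst9* in 98.7% and 98.6%, and *Tnni3* in 95.5% and 97.0%. *Defb36* had a UMI in 84.9% (82.9 to 86.8) of control and 78.2% (76.2 to 80.1) of *Cnot3*-cKO cells, *Tesc* in 86.4% (84.4 to 88.1) and 79.5% (77.5 to 81.4), and *Spp1* in 64.5% (61.9 to 67.0) and 68.9% (66.6 to 71.1). Germ-like cells, which should lack these genes, had a *Defb36* UMI in 4.56% and 7.04% and an *Spp1* UMI in 3.32% and 5.63%. Median depths were 13827 and 13300 UMIs in Sertoli-like and 31950 and 20265 in germ-like cells before thinning, when the *Defb36* shares of Sertoli-like cells were 93.4% and 88.7%.

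The spread over cells differed among the genes, and part of it follows the level, since sampling alone gives rarer genes a larger coefficient of variation. *Cst12* and *Clu* varied least, with coefficients of variation of 0.338 and 0.361 in control and 0.340 and 0.374 in *Cnot3*-cKO. *Aard* was at 0.413 and 0.410, with the middle 80% of cells from 13 to 41 UMIs in control and from 14 to 43 in *Cnot3*-cKO. *Cst9*, the other cystatin, with a mean of 9.72 UMIs against 19.5 for *Cst12* in control, varied more (0.588 and 0.616), from 3 to 17 and from 2 to 16 UMIs. *Tnni3* (0.638 and 0.660) ran from 2 to 14 and from 2 to 15. *Spp1* (1.13 and 1.08), *Tesc* (0.850 and 0.983) and *Defb36* (0.844 and 0.996) had larger coefficients of variation than *Tnni3*, at lower levels. The Fano factor is the variance over the mean, which is 1 when counts vary by sampling alone. It was highest for *Aard* (4.49 and 4.58). For *Cst9* it was 3.36 and 3.31 but for *Cst12* 2.22 and 2.31, and for *Trf* 1.03 and 1.06. Where cells differ beyond sampling, this factor also rises with the mean, which was highest for *Aard* (26.3 and 27.3 UMIs). It therefore does not rank the genes by how variable they are.

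**Figure D4:**
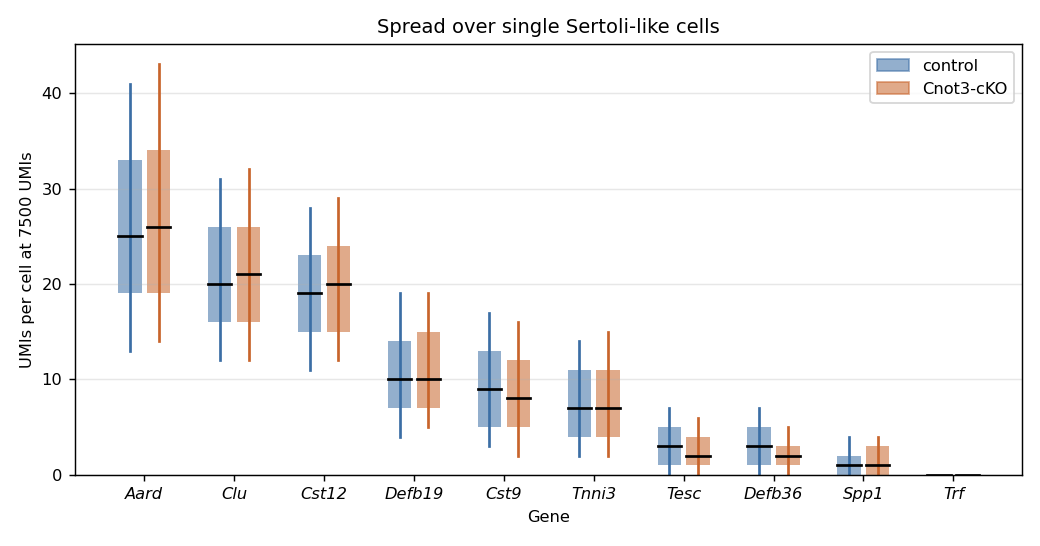
UMIs per Sertoli-like cell after thinning each cell to 7500 UMIs; the black line is the median, the box the middle 50% and the thin line the middle 80% of cells, by library. *Defb36* and *Tesc* have a median of 3 in control and 2 in *Cnot3*-cKO, and the other medians differ by at most 1 UMI.

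Across single Sertoli-like cells *Cst9*, *Aard*, *Defb19*, *Cst12* and *Clu* were positively correlated with each other. The weakest of these pairs were *Clu* with *Defb19* (0.17 in both libraries) and *Clu* with *Aard* (0.20 in control and 0.14 in *Cnot3*-cKO). *Spp1*, outside this group, was at 0.21 and 0.20 with *Defb19*. *Cst9* had a Pearson correlation of 0.44 in control and 0.40 in *Cnot3*-cKO with *Aard*, 0.39 and 0.40 with *Defb19*, 0.29 and 0.32 with *Cst12*, and 0.29 and 0.32 with *Clu*. *Defb36* and *Tesc* were at 0.22 and 0.22 with each other, and *Defb36* was at -0.08 and -0.16 with *Cst9*. *Tnni3* was at -0.12 and -0.19 with *Cst9*. *Defb19* and *Defb36* were at 0.10 and 0.06. These values are over 1400 and 1725 cells that share a library, are lowered by sampling in sparse genes, and are given with no test. Within clusters the pair *Cst9* and *Aard* stayed at 0.44, 0.47 and 0.38 in control clusters 1, 7 and 8 and at 0.37, 0.43 and 0.42 in *Cnot3*-cKO. Other pairs varied more: *Cst9* and *Clu* were at 0.31, 0.18 and 0.30 in control and 0.43, 0.21 and 0.19 in *Cnot3*-cKO, and *Cst9* and *Defb36* at 0.03, -0.08 and -0.01 in control. Correlations near 0, among them all those of *Trf*, are not read as findings.

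**Figure D5:**
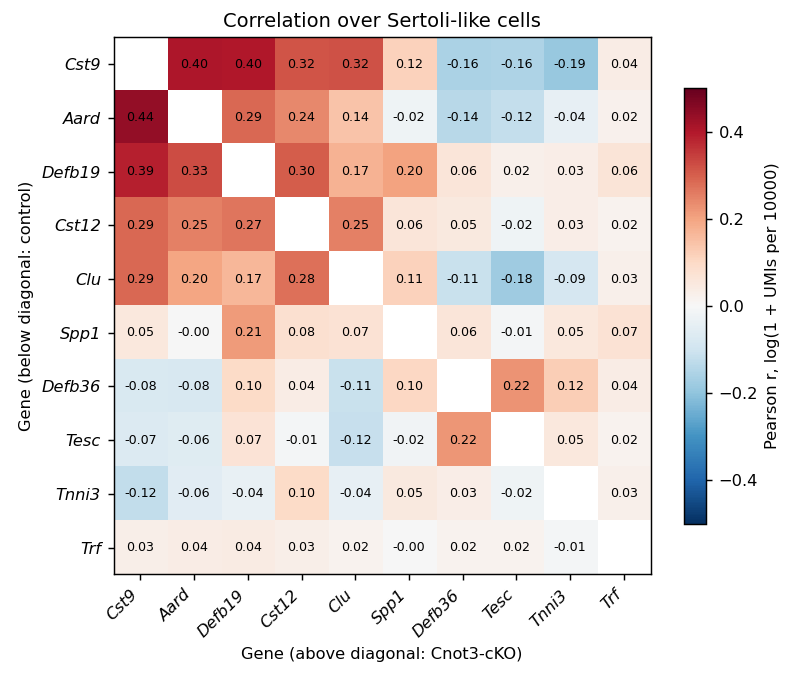
Pearson correlation of log(1 + UMIs per 10000) over Sertoli-like cells thinned to 7500 UMIs, control below and *Cnot3*-cKO above the diagonal. *Cst9*, *Aard*, *Defb19*, *Cst12* and *Clu* form a block of positive values (0.17 to 0.44 in control and 0.14 to 0.40 in *Cnot3*-cKO). *Defb36* and *Tesc* are a pair at 0.22, and *Defb19* and *Spp1* are at 0.21 and 0.20.

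The wider families were counted by how many relatives reached 100 UMIs in Sertoli-like cells. Of all 30828 genes, 11070 passed that filter. The cystatin count below was near that share and is not read as a result. The share of all genes with no UMI is not given here. Over all genes past the filter, 3.68% were lower and 6.74% higher by the fold, and the counts in these small lists are descriptions beside those shares. Of 19 genes matched as cystatins by symbol, which include *Cstad*, a gene of another kind with 3 and 8 UMIs, 9 had no UMI in Sertoli-like cells and 6 reached 100: besides *Cst9* and *Cst12*, the general inhibitors *Cst3* (544 and 550 CPM) and *Cstb* (120 and 131), and *Cst8* (67.2 and 62.4) and *Cst11* (18.2 and 18.5) of the same chromosome 2 cluster. *Cst13*, which lies between the cystatin pair, had 12 and 16 UMIs. None of the 6 passed the fold. Of 43 beta-defensin genes, 32 had no UMI and 3 reached 100, and 2 of these 3 were lower: *Defb36* and *Defb42* (35.6 and 24.1 CPM, log2 -0.56, interval -0.72 to -0.40). *Defb45*, between *Defb19* and *Defb36*, had 16 and 20 UMIs.

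Among 12 cathepsin and legumain genes, not all of which encode cysteine proteases, 10 reached 100 UMIs and 1 passed the fold. This was *Ctsl*, a lysosomal and secreted protease abundant in Sertoli cells, at 2607 and 3504 CPM (log2 0.43, 0.41 to 0.44). Of 15 iron-handling genes, *Trf* among them, 14 passed the filter, 1 was higher (*Tfrc*, the transferrin receptor, at 12.2 and 17.4, log2 0.51, 0.29 to 0.74) and 1 lower (*Steap2*, 3.71 and 2.91, log2 -0.35, -0.83 to 0.13). Both ferritin chains were near equal (*Fth1* 1543 and 1608, *Ftl1* 1186 and 1228). Of 9 integrin and related receptors of osteopontin, 5 were measured and 0 passed the fold. Of 5 clusterin receptors, 2 were measured, with *Lrp1* higher (52.5 and 65.5, log2 0.32, 0.21 to 0.43) and *Lrp8* lower (6.84 and 5.18, log2 -0.40, -0.76 to -0.05). Of 8 troponins, 3 were measured, *Tnni3* among them: *Tnni1*, the slow skeletal inhibitory form, was lower at 18.7 and 14.1 (log2 -0.41, -0.62 to -0.20), and *Tnnt1* was at 3.85 and 3.72. *Tnnc1*, the subunit that binds calcium with *Tnni3* in heart, had 48 and 41 UMIs. Of the tescalcin relatives, *Chp2* was at 172 and 186 and *Chp1* at 19.3 and 21.2, and neither passed the fold.

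The 8 genes whose levels over 27 cluster and library points were most like the mean profile of the 10 were *Rhox8*, *Tmem184a*, *Shbg*, *Gstm6*, *Nt5e*, *Amh*, *Tmem114* and *H2-Q10* (Pearson r 0.982 to 0.989). The 10 themselves ran from 0.978 to 0.991, except *Defb19* at 0.883 and *Trf* at 0.43. The 10 are part of that mean and were chosen as abundant Sertoli products, so nothing is read from their values. Points from 1 library share its depth and free RNA. *Rhox8* (1669 and 1743 CPM), a homeobox factor, and *Shbg* (141 and 151), which encodes a steroid carrier, had log2 ratios of 0.06 and 0.10. *Amh*, the hormone that removes the Müllerian duct, was at -0.22 (-0.25 to -0.18) and *H2-Q10* at 0.32 (0.20 to 0.45).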

How the data were processed

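Raw 10x matrices of P8 testis cells were analysed, 1 per genotype. Per the study's methods and the submitters' processing notes, the authors made them with Cell Ranger 3.0.1 (mm10, Ensembl 93). The deposited values are UMI counts per gene over 6794880 barcodes, not normalized, with no cell or sample calls. Barcodes above the 99th percentile, divided by 10, of the 3000 largest (7977 and 7664 UMIs) were called cells, and the stated filters were applied (mitochondrial share up to 10%, UMIs and genes within 2 SD of the mean). They left more cells than the study counted. Cells were clustered with scanpy 1.11.5 (2500 variable genes without the 10, 30 components, 15 neighbours, resolution 0.5) and classes named from marker lists. A leading gene of a cluster had to be in at least 10% of its cells. Counts were summed per class and scaled to counts per 1e+06 (CPM), with exact intervals. Named genes were the 10, relatives with at least 100 UMIs, the 8 most alike genes, markers and *Cnot3*; *Cst13*, *Cstad*, *Defb45*, *Tnnc1* and the genes that lead clusters were named after their values were seen. One gene of these lists is not reported here. The members and lists were chosen with earlier results of these data known. Barcodes that Scrublet marked as doublets (5.83% and 4.92% of those called) were kept, and left out as an alternative. On simulated counts for 11073 genes, 99% of 200 genes changed 2-fold in the Sertoli comparison passed the fold, and 2.86% of the unchanged genes did. These counts held sampling error only, with no variation between libraries or animals. The 2.86% is therefore not a rate of false calls for the real libraries.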

Additional observations from a re-analysis of the deposited data

Results flagged for a closer look

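*Defb36* had opposite directions in 2 classes. In germ-like cells its log2 ratio of *Cnot3*-cKO over control was 1.48 (0.52 to 2.39), from 29 control and 17 *Cnot3*-cKO UMIs (4.09 and 11.4 CPM), and in Sertoli-like cells it was -0.45. The difference was not tested. In germ-like cells the level was 0.0369 and 0.101 of that in empty barcodes. The others except *Trf* lay between 0.0273 and 0.0827 in control and between 0.0366 and 0.0807 in *Cnot3*-cKO. *Defb36* was thus the highest of the 9 in *Cnot3*-cKO, from 17 UMIs (counting interval 6.65 to 18.3 CPM). The summed Sertoli markers moved the same way (61.4 and 119 CPM). So did most of the 10 genes in germ-like cells, with log2 ratios of 1.41 for *Cst9*, 1.35 for *Defb19*, 1.28 for *Tnni3* and 1.08 for *Clu*. *Tesc* (-0.69) and *Trf* (-0.72) went the other way. *Cst9*, too, was opposite to its Sertoli-like ratio of -0.13. The top 3 *Cnot3*-cKO germ-like cells held 36.2% of the class's UMIs of the 10 genes.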

How the results depend on the processing

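No paired analysis was possible because both samples of a genotype are merged in 1 matrix, and for the same reason no replicate could be left out. Over 15 planned settings the log2 ratio of *Defb36* stayed between -0.49 and -0.43, that of *Tesc* between -0.38 and -0.25, that of *Spp1* between 0.24 and 0.43 and that of *Cst9* between -0.17 and -0.10. *Clu* (-0.02 to 0.05), *Cst12* (-0.01 to 0.07), *Tnni3* (-0.14 to 0.04) and *Trf* (-0.58, with cells thinned to 7500 UMIs, to 0.14) changed sign under at least 1 setting. The number of genes past the fold was 1 lower and 0 higher. It was 2 lower when ratios were centred on their median of 0.04 (which added *Tesc*) or cells thinned (which added *Trf*), 2 lower and 1 higher in Sertoli-like cells with under 3 cell-cycle UMIs (adding *Tesc* and *Spp1*), 1 higher in the wider cell set (*Spp1*), and 0 lower at a fold of 0.5. In splits added after seeing the data it was 2 lower in deeper cells and in cluster 7, 1 higher in shallower cells and in cluster 8, and 2 lower with 1 higher in cells with a mitochondrial share of 10% to 20% (adding *Trf* and *Spp1*). The shares of all genes past the fold moved too: 10.9% were higher and 4.98% lower with few cell-cycle UMIs, 9.94% higher in shallower cells, 12.1% higher in cluster 8, 6.27% higher in the wider set, 6.44% higher and 3.76% lower at a mitochondrial share of 10% to 20%, and 4.63% lower when centred, 3.56% when thinned, 3.63% in deeper cells, 3.56% in cluster 7 and 1.13% at a fold of 0.5. With genes of at least 10 UMIs as background, 8.79% were lower and 13.01% higher. Estimated free RNA was 3.49% and 3.75% of Sertoli-like UMIs. Of 300 levels in Sertoli-like cells under the alternatives, 109 left the counting interval of the reported level, and for the 9 abundant genes none moved by more than 1.31 times. The main limit is 1 library per genotype: intervals cover counting error only, and variation between animals is unknown.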

Other observations

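*Aard* was also found at a higher level in 1 interstitial-like cluster, cluster 2, led by the cycle genes *Pclaf* and *Mki67*. It was at 72.9 CPM there in control, against 28.3 to 40.2 in clusters 4, 5, 6, 9 and 12, while *Cst12* was at 10.8 in cluster 2 and between 8.86 and 13.8 in those clusters. In *Cnot3*-cKO *Aard* was at 134 in cluster 2, against 49.5 to 53.5 in the same clusters, but *Cst12* (43.0 against 15.4 to 21.7) and *Clu* (49.1 against 19.5 to 40.9) were higher there as well.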
